A study of Mus musculus with 6 samples.

Results

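The genes described here are 10 of the 25700 genes counted in the files: the cytokines Tnf, Tnfsf13b, Il6, Lif, Osm, Il12b, Il15 and Il10, and the cytokine receptor chains Il6ra and Il10ra. They were chosen by name, as members of the TNF, IL-6, IL-12/IL-15 and IL-10 families, with earlier results of these data known, and the rule itself uses no measured value. Their mRNA was compared between 3 heme-treated and 3 control cultures of bone marrow-derived macrophages (BMDMs), which are primary macrophages grown from marrow cells, by bulk RNA-Seq. All 6 cultures came from C57BL/6J mice aged 8 to 10 weeks and were grown in M-CSF (100 ng/ml), the growth factor of the macrophage lineage. The heme-treated cultures received 300 μM heme-albumin on day 3. The control cultures received albumin, the carrier of heme, on the same day, and both groups were harvested on day 7. No transgene, deletion or further stimulus was part of either group, and no endotoxin or cytokine other than M-CSF was named for them. Each library stood for 1 mouse, so the spread within a group holds both animal and culture. The comparison addresses which cytokine and cytokine receptor transcripts of a resting macrophage differ after exposure to heme during differentiation.

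TNF is the early cytokine of macrophage activation, and BAFF, encoded by Tnfsf13b, is its relative that keeps B cells alive. IL-6, LIF and oncostatin M signal through receptors that share the gp130 chain and activate the transcription factor STAT3. IL-12 drives interferon production by T and NK cells, IL-15 sustains NK and memory T cells, and IL-10 also acts through STAT3 but shuts down cytokine production in the macrophage that receives it. Most of these cytokine mRNAs are short-lived, because AU-rich stretches in their 3′ UTRs are bound by decay factors of the ZFP36 family.

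The AU-rich sites are shown because 5 of the 8 cytokine transcripts had a density of ATTTA pentamers in the 3′ UTR that few genes reached. Il10ra is given for comparison. For each of these 6 genes, the 30 bases of the longest annotated 3′ UTR that held the most copies of the pentamer ATTTA are printed in the sense direction with each pentamer in capitals. The positions on GRCm38 are chr17:35199679-35199708 on the minus strand for Tnf, chr5:30019677-30019706 on the plus strand for Il6, chr1:131024372-131024401 on the plus strand for Il10, chr11:4240939-4240968 on the plus strand for Osm, chr11:44413473-44413502 on the plus strand for Il12b and chr9:45254115-45254144 on the minus strand for Il10ra.
Tnf: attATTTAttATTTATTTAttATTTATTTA
Il6: tttaattatttttaATTTAttgataATTTA
Il10: cctcgtttgtacctctctccgaaatATTTA
Osm: aatccgttttatATTTAtaaggcctATTTA
Il12b: ATTTAagtaATTTAtgtATTTAttaATTTA
Il10ra: cctttATTTATTTAtttgctcacttATTTA

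The Tnf window held 5 pentamers, some of them sharing a base, and the Il12b window held 4. Over the whole 3′ UTR, Tnf had 8 pentamers in 764 bases, or 10.5 per kb, a density reached by 1.04% of the 20966 genes with an annotated 3′ UTR. Il10 followed with 6 pentamers in 706 bases (8.5 per kb, reached by 1.83% of genes), then Il12b with 7.53, Il6 with 6.0 and Osm with 5.9 per kb, densities that 2.63%, 4.76% and 4.97% of genes reached. By number alone they stood out less: 10.5% of genes had at least as many pentamers as Tnf, 6.85% as Il6 and 16.9% as each of Il10, Osm and Il12b. The median gene had 1.24 per kb, and 34.8% of genes had none. Il15 had 1 pentamer in 282 bases (3.55 per kb, reached by 15.9% of genes), and Lif (2.2 per kb), Il10ra (1.77) and Tnfsf13b (1.65) lay nearer to the median. Il6ra, with 4 pentamers in 7102 bases (0.563 per kb), lay below it. A pentamer is a match of letters and not a measured binding site.

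**Figure D1:**
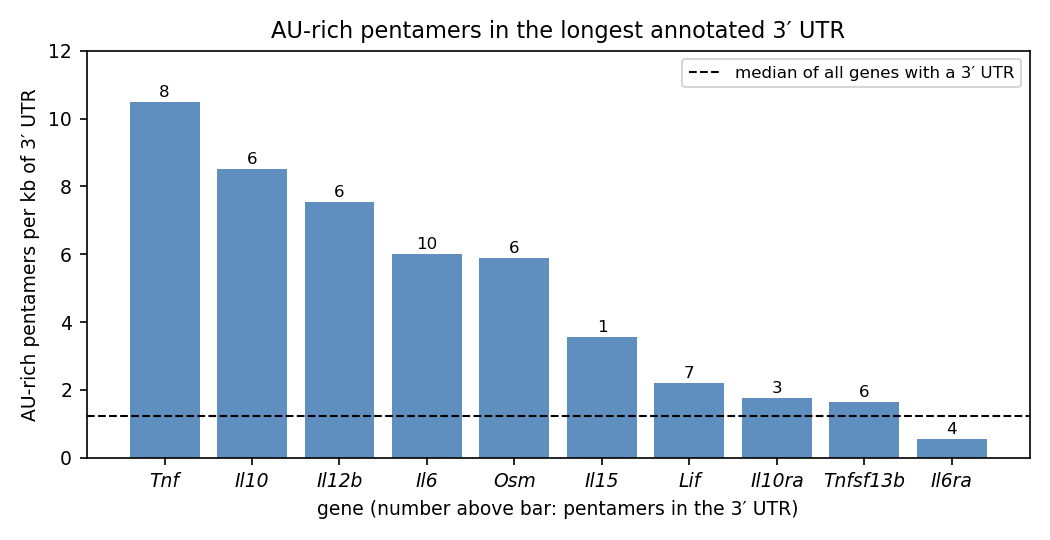
AU-rich pentamers (ATTTA) per kilobase of the longest annotated 3′ UTR for the 10 genes, with the number of pentamers above each bar and the median of 20966 genes as a dashed line at 1.24. Tnf has the highest density (10.5 per kb), and Il6ra is the only one of the 10 below the line (0.563 per kb).

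The upstream sequences of Tnf and Il6 are shown because these classic partners in macrophage activation had very different levels in these cultures. They are the 250 bases before the RefSeq start on GRCm38.p6, chr17:35202008-35202257 on the minus strand for Tnf and chr5:30012864-30013113 on the plus strand for Il6, with matches to the motifs in capitals.
Tnf: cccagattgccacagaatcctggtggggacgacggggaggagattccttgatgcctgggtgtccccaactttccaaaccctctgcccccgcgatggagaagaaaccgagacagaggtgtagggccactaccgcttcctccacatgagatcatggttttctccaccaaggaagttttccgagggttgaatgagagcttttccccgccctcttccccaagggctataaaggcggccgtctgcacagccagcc
Il6: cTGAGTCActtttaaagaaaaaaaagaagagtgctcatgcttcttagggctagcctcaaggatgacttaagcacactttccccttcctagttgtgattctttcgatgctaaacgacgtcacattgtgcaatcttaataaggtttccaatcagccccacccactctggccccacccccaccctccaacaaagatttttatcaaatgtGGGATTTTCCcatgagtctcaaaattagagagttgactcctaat

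In the Il6 window, GGGATTTTCC starts 44 bases before the gene's start and fits the kappaB motif GGGN3TTCC, where N3 stands for any 3 bases. TGAGTCA, which starts 249 bases before the start, fits the AP-1 motif TGANTCA. The Tnf window held neither, and no match to the core of the antioxidant response element (TGACNNNGC), the sequence type that NRF2 binds, or to the STAT motif TTCNNNGAA. Windows were found for 6 of the 10 genes. Lif and a second, downstream window of Tnfsf13b each held an antioxidant response element core and an AP-1 match, while Il12b and Il6ra held none of the 4 motifs. Both strands were searched, and matches could overlap. Each motif was searched in the given form only and within these windows only. Other forms of a motif and sites further upstream were not searched, so the absence of a match does not show that a gene lacks such sites. A match is one of letters and not a measured binding site. Among 32851 windows of all genes, 10.2% held the antioxidant response element core, 4.65% kappaB, 7.02% the STAT motif and 6.75% AP-1.

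Libraries held 27201038 to 32994595 counts, the second heme-treated culture being the shallowest, and 12433 genes passed the filter on low counts. Hmox1, the heme-degrading enzyme, averaged 20990 ± 695 CPM (counts per 1000000 counts of the library) in heme-treated and 584 ± 57.7 CPM in control cultures (SD, n = 3 each), as the treatment labels imply. All 7 macrophage markers were counted in every library. CPM values are on the TMM scale, in which library sizes are adjusted so that most genes balance. With library sizes alone, the log2 fold change of all genes shifts by -0.22, and results that this shift changed are given with both scales. In bulk RNA, fewer cells that make a transcript and less of it in each cell cannot be told apart.

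Of the 10 genes, 7 passed the filter. Tnf, Osm and Tnfsf13b rose in heme-treated BMDMs, Il10, Il6ra and Il10ra fell, and Il15 did not pass the test. Il6, Lif and Il12b were below the filter in both groups. Heme-treated cultures thus had more TNF mRNA than controls. Il6 had almost no counts in heme-treated and none in control cultures, and Il12b had none in either group. The 6 calls among 7 tested genes compare with 62.5% of all tested genes called by edgeR's quasi-likelihood test at a Benjamini-Hochberg adjusted p under 0.05 (31.7% higher and 30.8% lower). The libraries of the groups did not overlap for 6 of the 7, against 68.8% of all tested genes. Changes were thus common across the transcriptome, and the share of these genes called is read against that background. With 3 libraries in each group, an exact permutation test of a single gene cannot go below p = 0.1, and that value was reached by each of the 6 genes.

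**Figure D2:**
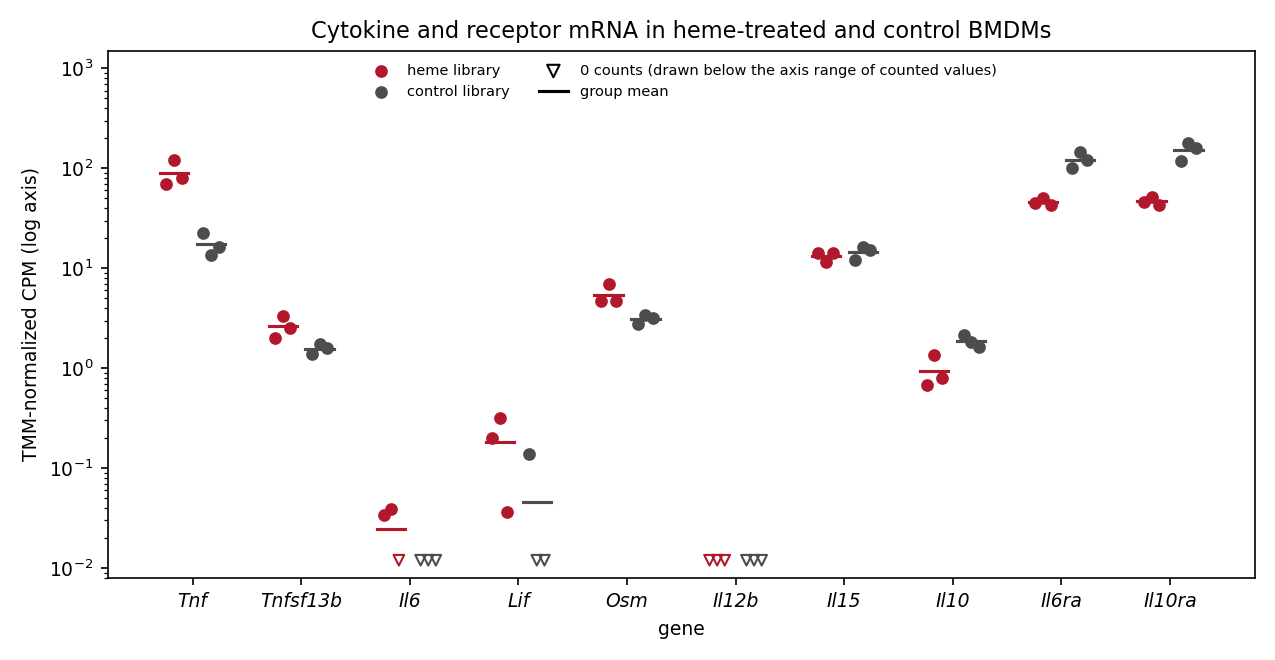
Level of each of the 10 genes in each library, as CPM on the TMM scale with a log axis, for heme-treated (red, left) and control (gray, right) cultures, with a line at each group mean and open triangles for 0 counts. The 3 heme-treated libraries lie above the 3 control libraries for Tnf, Tnfsf13b and Osm and below them for Il10, Il6ra and Il10ra, while the groups overlap for Il15.

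Tnf (ENSMUSG00000024401, chromosome 17, 35199381 to 35202007, minus strand) had 69.6, 120 and 80.1 CPM in the heme-treated cultures, against 22.7, 13.6 and 16.4 CPM in the control cultures. These values rested on 2067 to 3041 counts per heme-treated library and 455 to 821 per control library. The lowest heme-treated culture was far above the highest control, and the second heme-treated culture stood highest. Tnf rose 5.11-fold, a log2 fold change of 2.35 (SE 0.23, edgeR adjusted p = 1.73e-05). It kept this direction and call in all 14 alternatives tried, with log2 fold changes between 2.09 and 2.58.

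Tnfsf13b, the BAFF gene (ENSMUSG00000031497, chromosome 8, 10006467 to 10039072, plus strand), was a low transcript. It had 2.02, 3.32 and 2.53 CPM in heme-treated cultures, against 1.38, 1.73 and 1.59 CPM in controls, from 60 to 84 counts per heme-treated and 50 to 58 per control library. The groups did not overlap, but the lowest heme-treated culture was close to the highest control. The log2 fold change was 0.74 (SE 0.22, edgeR adjusted p = 0.0149). This call rested on the second heme-treated culture and on the scaling: without that culture it was 0.54 (edgeR adjusted p = 0.064), and with library sizes alone it was 0.52 (edgeR adjusted p = 0.0609).

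Il6 (ENSMUSG00000025746, chromosome 5, 30013114 to 30019981, plus strand) was at the limit of detection. It had 1, 1 and 0 counts in the heme-treated libraries and 0 counts in each control library. A count of 0 over the 3 control libraries allows up to 0.0293 CPM (3 counts of their total), a limit that covers counting error only. For the heme-treated libraries 3 counts equal 0.0365 CPM. Their 2 counts lay under this floor, which is no upper limit where counts were seen. No fold is given.

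Lif (ENSMUSG00000034394, chromosome 11, 4257557 to 4272514, plus strand), named for the inhibition of leukemia cell growth, was also too low for the test. It had 6, 8 and 1 counts in heme-treated libraries, against 5, 0 and 0 in control libraries. All 5 control counts came from the first control culture, and the third heme-treated culture had fewer than that, so the groups overlapped. The ratio of the summed counts, each divided by the summed TMM-adjusted library sizes of its group, was 3.73, with a 95% exact binomial interval of 1.29 to 13.1 that covers counting error only and not the spread between cultures. Without a filter on low counts, edgeR gave an adjusted p = 0.162.

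Osm, the oncostatin M gene (ENSMUSG00000058755, chromosome 11, 4236420 to 4241026, plus strand), lies 16.5 kb from Lif on the same strand. It had 4.71, 6.95 and 4.69 CPM in heme-treated cultures, against 2.76, 3.37 and 3.15 CPM in controls. The groups did not overlap, and the second heme-treated culture again stood highest. Osm rose 1.76-fold, a log2 fold change of 0.81 (SE 0.18, edgeR adjusted p = 0.00367), and the call held in all 14 alternatives, between 0.59 and 0.91.

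Il12b (ENSMUSG00000004296, chromosome 11, 44400063 to 44414033, plus strand), which encodes the p40 chain shared by IL-12 and IL-23, had 0 counts in all 6 libraries. This allows up to 0.0365 CPM over the heme-treated and 0.0293 CPM over the control libraries. Il15 (ENSMUSG00000031712, chromosome 8, 82331632 to 82403222, minus strand) had 14.2, 11.5 and 14.2 CPM in heme-treated cultures, against 12.1, 16.2 and 15.2 CPM in controls. The libraries of the groups were interleaved. The log2 fold change was -0.12 with a 95% interval of -0.42 to 0.17 (edgeR adjusted p = 0.44) on the TMM scale. With library sizes alone it was -0.34 and passed the test (edgeR adjusted p = 0.036), a difference close to the shift of all genes.

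Il10 (ENSMUSG00000016529, chromosome 1, 131019845 to 131024974, plus strand) had 0.673, 1.34 and 0.807 CPM in heme-treated cultures, against 2.15, 1.82 and 1.62 CPM in controls. These values rested on only 20, 34 and 22 counts in heme-treated libraries, against 78, 61 and 53 in control libraries. The groups did not overlap, although the second heme-treated culture came close to the lowest control. Il10 fell, with a log2 fold change of -1.0 (SE 0.27, 95% interval -1.61 to -0.40, edgeR adjusted p = 0.00902). Leaving out 1 library at a time gave -1.33 to -0.80, with a highest adjusted p of 0.0451 by edgeR.

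Il6ra (ENSMUSG00000027947, chromosome 3, 89864059 to 89913196, minus strand) encodes the chain that binds IL-6 before gp130 joins it. It had 45.3, 50.7 and 43.2 CPM in heme-treated cultures, against 101, 145 and 121 CPM in controls. The heme-treated cultures varied little and all lay below the lowest control. Il6ra was 2.63-fold lower, a log2 fold change of -1.39 (SE 0.12, edgeR adjusted p = 9.7e-06). Of its exon bases, 242 lie opposite the antisense gene Gm42809, which was not counted in the files, and the strand setting of the counting is not given in the sources used here.

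Il10ra (ENSMUSG00000032089, chromosome 9, 45253837 to 45269149, minus strand) encodes the ligand-binding chain of the IL-10 receptor. It had 46.0, 51.5 and 42.5 CPM in heme-treated cultures, against 119, 180 and 160 CPM in controls. The groups were far apart. Il10ra was 3.28-fold lower, a log2 fold change of -1.71 (SE 0.14, edgeR adjusted p = 5.98e-06). Both receptor genes kept their call in all 14 alternatives, between -1.61 and -1.26 for Il6ra and between -1.93 and -1.59 for Il10ra.

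**Figure D3:**
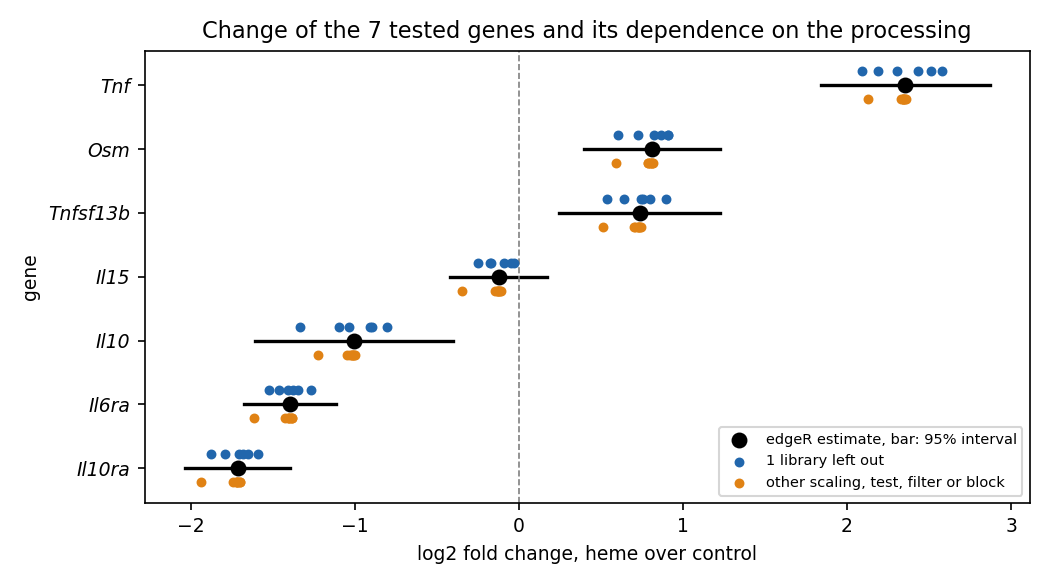
Log2 fold change, heme over control, of the 7 tested genes by edgeR (black, bar: 95% interval), with the estimates after leaving out 1 library (blue) and under other scalings, tests, filters or the replicate block (orange). The estimates for Tnf and Osm all lie above 0 and those for Il10, Il6ra and Il10ra all below it, while the Il15 interval reaches from -0.42 to 0.17.

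Divided by exon length, as TPM (counts per kilobase of exon, scaled to sum to 1000000 in each library), the levels of the 10 genes stood in another order in each group. In heme-treated cultures Tnf led with 149 ± 46.6 TPM (SD, n = 3), followed by Il10ra with 36.1 ± 3.89 TPM. Il15 and Il6ra came next at 15.9 and 14.5 TPM, with overlapping libraries, and then Osm (6.5 TPM), Il10 (1.95 TPM) and Tnfsf13b (1.03 TPM). Lif (0.115 TPM) and Il6 (0.0271 TPM) overlapped near 0. In control cultures Il10ra led with 144 ± 26.3 TPM. Il6ra (46.5 TPM) and Tnf (35.5 TPM) overlapped, followed by Il15 at 21.1 TPM, and Il10 (4.71 TPM) overlapped with Osm (4.49 TPM). Tnfsf13b at 0.752 TPM and Lif at 0.0358 TPM came last among the detected genes.

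Within each library, the Tnf level per length was 82.6, 71.5 and 79.4 times that of Il10 in heme-treated cultures, against 8.41, 5.96 and 8.08 times in controls. The 3 ratios within a group lay close together, and of the heme-treated cultures the second was highest for both genes. Il10ra was 2.51, 2.51 and 2.43 times as high as Il6ra per length in heme-treated cultures, against 2.92, 3.08 and 3.28 times in controls. These ratios are descriptions without a test.

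**Figure D4:**
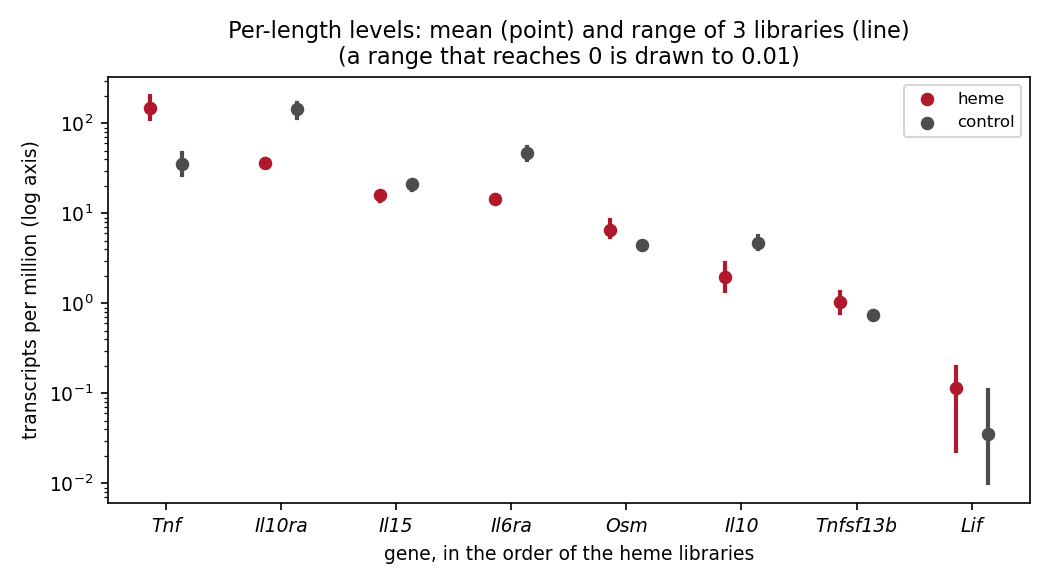
Mean TPM (point) and range of 3 libraries (line) on a log axis for 8 of the 10 genes in heme-treated (red, left) and control (gray, right) cultures, in the order of the heme-treated means, where a range that reaches 0 is drawn to near the bottom of the axis. Tnf is first in heme-treated cultures at 149 TPM, and Il10ra is first in controls at 144 TPM.

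Further ligands of the IL-6 family, 11 genes with Il6, Lif and Osm included, were mostly below the filter. Of the 5 tested, Osm and Clcf1 rose and 3 did not pass the test. None of these 3 fell by edgeR, DESeq2 or limma-voom on their own scales, although 1 was lower at an unadjusted p under 0.05 by edgeR and 2 fell with library sizes alone. The list median was -0.03, against 0.00406 for all tested genes. The counts of this list and of those below are read against 62.5% of all tested genes called (31.7% higher and 30.8% lower). Clcf1 encodes a ligand that acts through the CNTF receptor. It had 11.2, 10.7 and 11.2 CPM in heme-treated cultures, against 0.0552, 0 and 0.122 CPM in controls, that is 910 counts in all heme-treated and 6 in all control libraries. The Clcf1 groups were far apart, and its log2 fold change was 7.46 (SE 0.31, edgeR adjusted p = 7.82e-08).

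Of the 7 receptor genes of the gp130 family, 5 were tested. Of these, 1 rose, 3 fell and 1 was not called on either scale, with a median of -0.30 on the TMM scale. Besides Il6ra, the fallen genes were Lifr, the LIF receptor (4.64 ± 1.22 CPM in heme-treated and 16.9 ± 1.24 CPM in control cultures, SD, n = 3, log2 fold change -1.87), and Il6st, the gp130 gene itself. Il6st, chosen after its values were seen, had 157, 182 and 164 CPM in heme-treated cultures, against 184, 212 and 222 CPM in controls, a log2 fold change of -0.30 (edgeR adjusted p = 0.0127). The groups did not overlap, and whether Il6st changed less than Il6ra or Lifr was not tested. Per length, Il6st was 2.7, 2.79 and 2.96 times as high as Il6ra in heme-treated cultures, against 1.42, 1.14 and 1.44 times in controls. Il27ra, the IL-27 receptor chain, was the gene that rose, with a log2 fold change of 0.90, from 95 counts in all heme-treated and 63 in all control libraries. Osmr and Cntfr, which oncostatin M and CLCF1 use as their specific receptors, had 0 counts in all 6 libraries.

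Of the 6 ligand genes of the IL-12 family and IL-15, 3 were tested and 0 were called by edgeR, as by DESeq2 and limma-voom, while all 3 fell with library sizes alone. By edgeR 1 of them, Ebi3, the chain that IL-27 shares with IL-35, which was picked after its values were seen, was lower at an unadjusted p under 0.05, and the list median was -0.22. Il12a and Il12b, the genes of the 2 chains of IL-12, had 0 counts in all 6 libraries. Il10 was the only IL-10 family ligand of 5 that passed the filter, and Il20, Il22 and Il24 had 0 counts.

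Of the 8 receptor genes for IL-10, IL-12 and IL-15, 6 were tested. Of these, 2 rose, 2 fell and 2 were not called on either scale, with a median of -0.21 on the TMM scale. Il12rb1, the receptor chain shared by IL-12 and IL-23, had 10.0, 8.33 and 8.14 CPM in heme-treated cultures, against 0.635, 0.477 and 0.611 CPM in controls. The groups did not overlap, and Il12rb1 rose with a log2 fold change of 3.93 (SE 0.18, edgeR adjusted p = 1.23e-07). Il10rb, the chain that transmits the IL-10 signal, was lower by less than Il10ra, at 169 ± 5.59 CPM in heme-treated and 246 ± 13.7 CPM in control cultures (SD, n = 3), a log2 fold change of -0.54. Its level per length was 3.4, 2.91 and 3.76 times that of Il10ra in heme-treated cultures, against 1.85, 1.34 and 1.36 times in controls. The difference between the changes of both chains was not tested.

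Among 17 ligands of the TNF superfamily, 9 were tested. Of these, 4 rose, 3 fell and 2 were not called, or 3, 3 and 3 with library sizes alone. Their median was 0.11. Tnfsf4, the OX40 ligand that costimulates T cells, had 16.5, 15.4 and 12.5 CPM in heme-treated cultures, against 2.51, 1.88 and 2.11 CPM in controls, a log2 fold change of 2.77 (SE 0.16, edgeR adjusted p = 4.38e-07). Tnfsf10, which encodes the death ligand TRAIL, had 4 counts in all heme-treated and 162 in all control libraries, a log2 fold change of -4.92 (SE 0.44, edgeR adjusted p = 9.79e-06). The heme-treated libraries lay on one side of all control libraries for each of these genes. Lta, the gene beside Tnf on chromosome 17 that encodes lymphotoxin alpha, was below the filter and was picked after its values were seen. It had 41 counts in all heme-treated and 5 in all control libraries, a ratio of 10.2 computed as for Lif, with a 95% exact interval of 4.04 to 33.1 for counting error only.

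Of 8 genes for TNF and BAFF receptors and the shedding of TNF, 7 were tested. Of these, 2 rose, 2 fell and 3 were not called, with a median of 0.03, and with library sizes alone the counts were 1, 3 and 3. Tnfrsf1b, the second TNF receptor, had 669, 710 and 621 CPM in heme-treated cultures, against 384, 524 and 455 CPM in controls, a log2 fold change of 0.55 (SE 0.11, edgeR adjusted p = 0.00171). The genes of 2 BAFF receptors fell. Tnfrsf13b, which encodes TACI, had 14.1 ± 1.41 CPM in heme-treated and 25.4 ± 1.27 CPM in control cultures (SD, n = 3, log2 fold change -0.85). Tnfrsf17, which encodes BCMA, had 16 counts in all heme-treated and 75 in all control libraries (log2 fold change -1.90). Adam17, the protease that releases TNF from the cell surface, was chosen after its values were seen and had a log2 fold change of 0.11 that did not pass the test (edgeR adjusted p = 0.266).

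All 18 genes of TNF receptor signaling were tested. Of these, 2 rose, 8 fell and 8 were not called, with a median of -0.10, and with library sizes alone 2 rose and 13 fell. The share that fell thus depends on the scaling. Tnfaip3, which encodes the NF-κB inhibitor A20, had 97.3, 120 and 92.8 CPM in heme-treated cultures, against 64.9, 50.9 and 55.3 CPM in controls (log2 fold change 0.86, SE 0.12, edgeR adjusted p = 0.000158). Fadd, the adaptor of death receptors, fell with a log2 fold change of -0.90, and Traf1, an adaptor at TNF receptors, with one of -0.73.

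Of 14 genes for JAK-STAT3 signaling and its inhibitors, 3 rose, 4 fell and 7 were not called, or 2, 6 and 6 with library sizes alone. Their median was 0.10. Socs3, the feedback inhibitor that binds gp130, had 5.39, 7.46 and 3.41 CPM in heme-treated cultures, against 0.884, 1.52 and 1.5 CPM in controls. The groups did not overlap, and the second heme-treated culture was the highest. Among heme-treated cultures it was also highest for Tnf, Osm and Tnfsf13b, which rose, and for Il10, Il6ra and Il10ra, which fell. The same held for the untested Lif, while for Il15 it was the lowest. Socs3 rose with a log2 fold change of 2.06 (SE 0.31, edgeR adjusted p = 0.000303). The list also holds Il4ra, a receptor chain for IL-4 and IL-13, which is among the 3 risen genes with a log2 fold change of 0.76. Pias3, an inhibitor of STAT3, fell with a log2 fold change of -0.60.

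All 11 genes that act on the decay or stability of cytokine mRNAs were tested. Of these, 2 rose, 5 fell and 4 were not called, with a median of -0.09, and with library sizes alone 1 rose and 7 fell. Zfp36l1, which encodes a decay factor of the ZFP36 family, had 2.26, 3.91 and 2.16 CPM in heme-treated cultures, against 75.8, 104 and 85.4 CPM in controls. Binding of its protein to the sites shown above was not measured. The Zfp36l1 groups were far apart, with a log2 fold change of -5.01 (SE 0.20, edgeR adjusted p = 6.69e-08). Its relative Zfp36, which encodes tristetraprolin, had 85.9 ± 15.6 CPM in heme-treated and 91.3 ± 6.02 CPM in control cultures (SD, n = 3). The Zfp36 log2 fold change of -0.09 did not pass the test (edgeR adjusted p = 0.525). Zfp36l2, of the same family, had higher levels, at 357 ± 15.95 CPM in heme-treated and 344 ± 34.7 CPM in control cultures (SD, n = 3). Its log2 fold change of 0.06 did not pass the test either (edgeR adjusted p = 0.577). Zfp36 and Zfp36l2 were chosen after their values were seen. Their results are given on the TMM scale only, while more genes of this list fell with library sizes alone. Zc3h12a, which encodes the RNase Regnase-1 that cuts Il6 and Il12b mRNA, had 43.5, 55.1 and 45.7 CPM in heme-treated cultures, against 18.8, 22.2 and 19.6 CPM in controls, a log2 fold change of 1.25 (SE 0.10, edgeR adjusted p = 6.37e-06). Rc3h1, which encodes the decay factor Roquin-1, fell with a log2 fold change of -0.53.

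Of 14 transcription factors known to act at Il10, Il12b, Tnf or Il6, 4 rose, 8 fell and 2 were not called on either scale. Among all tested genes, 31.7% were called higher and 30.8% lower on the TMM scale. The list median was -0.28 on that scale. Maf, an activator of Il10 in macrophages, had 66.0, 87.0 and 69.9 CPM in heme-treated cultures, against 384, 376 and 331 CPM in controls (log2 fold change -2.29, SE 0.11, edgeR adjusted p = 1.71e-07). Cebpb, a factor induced by inflammatory stimuli that acts at Il6 and Tnf, had 124, 119 and 107 CPM in heme-treated cultures, against 34.1, 39.3 and 43.4 CPM in controls, a log2 fold change of 1.58 (SE 0.10, edgeR adjusted p = 7.7e-07). Irf1, an interferon-regulated factor that acts at Il12b, had 18.6 ± 3.15 CPM in heme-treated and 40.1 ± 4.75 CPM in control cultures (SD, n = 3), a log2 fold change of -1.11. The NF-κB subunit genes Rel, Rela and Nfkb1, chosen after their values were seen, fell with log2 fold changes of -0.54, -0.25 and -0.26.

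**Figure D5:**
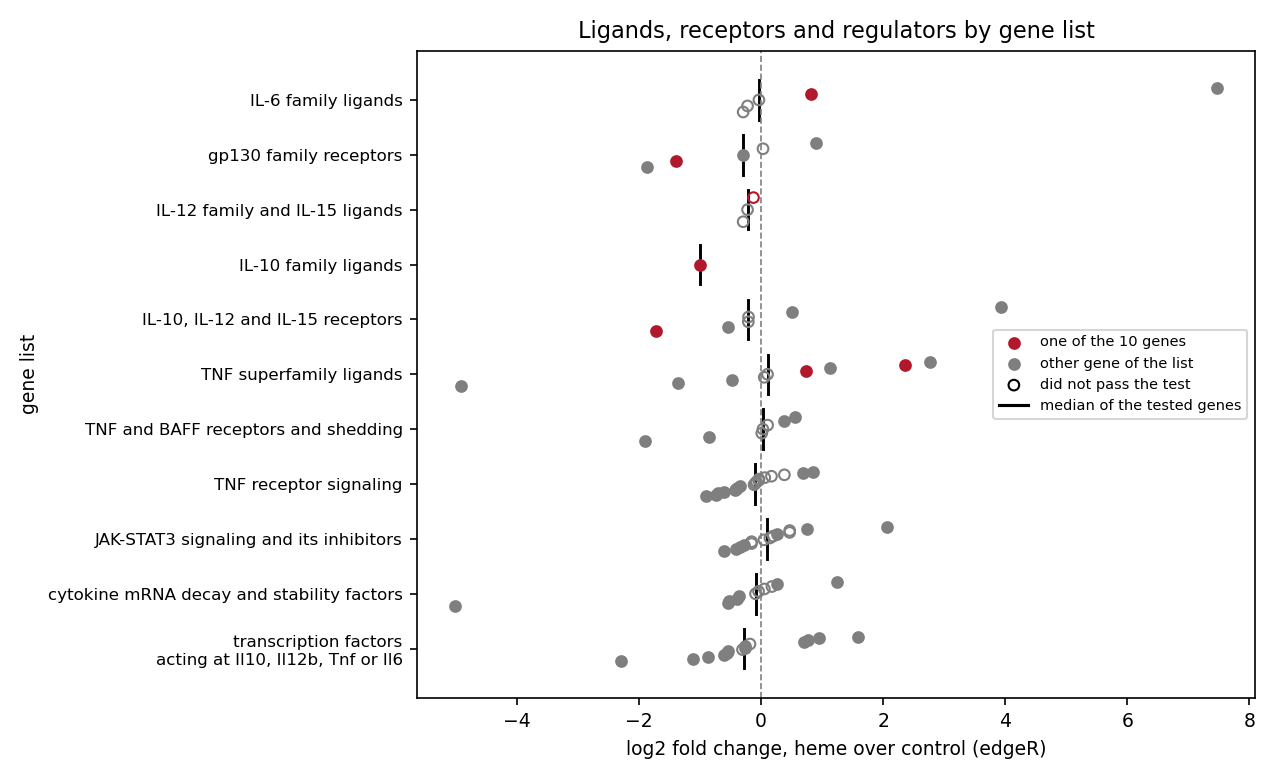
Log2 fold change, heme over control, by edgeR on the TMM scale for the tested genes of the 11 gene lists, with the 10 genes in red, other genes in gray, open circles for genes that did not pass the test and a line at each list's median. Most genes lie within 1 log2 unit of 0, while Clcf1 (7.46) and Il12rb1 (3.93) lie far to the right and Zfp36l1 (-5.01) and Tnfsf10 (-4.92) far to the left.

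The genes whose pattern over the 6 libraries was closest to that of Tnf, Il10ra and Il6ra were found by the Euclidean distance between log2 CPM values centred on each gene's mean. For Tnf they were Msr1, a scavenger receptor gene, at a distance of 0.397, Asap2 at 0.494 and Gm2065 at 0.501. For Il10ra they were Socs6 at 0.129, Peli2 at 0.232 and Zfp704 at 0.238, and for Il6ra they were Tmem86a at 0.138, Natd1 at 0.164 and Serinc3 at 0.179. With 6 libraries in 2 groups, these distances mainly reflect the difference between the groups.

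Markers of some other cells moved with the groups, while the summed levels of NK, dendritic and endothelial cell markers overlapped between them. The called markers are read against 62.5% of all tested genes called (31.7% higher and 30.8% lower). Of 11 neutrophil markers, 8 were tested, of which 7 rose and 1, Csf3r, fell. Their summed levels were 123 to 165 CPM in heme-treated and 57.8 to 117 CPM in control libraries. Mpo and Elane, picked after their values were seen, had 1813 and 316 counts in all heme-treated libraries. In all control libraries they had 1 and 0 counts. Without Csf3r the sums were 90.0 to 133 CPM in heme-treated and 6.99 to 11.2 CPM in control libraries. Of 5 monocyte markers, 4 rose and 1, Ccr2, fell, with sums of 98.1 to 109 CPM in heme-treated and 33.9 to 37.3 CPM in control libraries. Ly6c2, also picked after its values were seen, had 3215 counts in all heme-treated and 34 in all control libraries. Of 7 macrophage markers, 1 rose, 5 fell and Lyz2 was not called, with sums of 36100 to 39400 CPM in heme-treated and 31400 to 37300 CPM in control libraries. Without Lyz2, their most abundant gene, the sums were 5140 to 5440 CPM in heme-treated and 6270 to 7040 CPM in control libraries. Of 7 T cell markers, 2 were tested. Cd4 fell, with 40 counts in all heme-treated and 554 in all control libraries, and Lck was not called. Cd3e, Cd3g and Cd8a had 0 counts in all 6 libraries, while Cd3d and Trac had 3 and 2 counts in all heme-treated libraries and 0 in control libraries. The T cell sum reached 1.75 CPM in heme-treated and 7.7 CPM in control libraries, and without Cd4, which carried most of the control sum, 0.943 CPM in heme-treated and 0.608 CPM in control libraries. Of 5 NK cell markers, Klrb1c was tested and was not called, with 34 counts in all heme-treated and 17 in all control libraries, and Gzma had 0 counts in all 6. The NK cell sums were 0.303 to 0.623 CPM in heme-treated and 0.119 to 0.387 CPM in control libraries. Of 5 B cell markers, 1 was tested and fell, Cd79b, with 54 counts in all heme-treated and 175 in all control libraries, and the sum reached 0.976 CPM in heme-treated and 2.02 CPM in control libraries. Of 6 mast cell or basophil markers, 3 were tested and 2 rose. These were Mcpt8, with 48 counts in all heme-treated and 0 in all control libraries, and Gata2, with 111 in all heme-treated and 7 in all control libraries, and the sums were 2.49 to 3.81 CPM in heme-treated and 0.597 to 1.04 CPM in control libraries. Of 7 stromal cell markers, 1 was tested and rose, Pdgfrb, with 86 counts in all heme-treated and 29 in all control libraries, and the sums were 1.03 to 1.38 CPM in heme-treated and 0.249 to 0.397 CPM in control libraries. Dcn and Lum, which define stromal cells, had 0 counts in all 6 libraries. Of 4 endothelial cell markers, 3 were tested, of which Pecam1 rose, Kdr fell and 1 was not called, with sums of 2.72 to 3.19 CPM in heme-treated and 2.77 to 3.98 CPM in control libraries. None of 7 dendritic cell markers passed the filter, and their sums were 0.88 to 1.11 CPM in heme-treated and 0.703 to 1.67 CPM in control libraries. The part of such cells in the cytokine values was not tested.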

How the data were processed

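RNA of 3 heme-treated and 3 control BMDM cultures was prepared as stranded TruSeq libraries from samples with an integrity number above 9 and amplified with 15 PCR cycles. The files that the authors deposited, 1 for each library, hold raw counts of reads for every Ensembl gene, in whole numbers. The submitters' processing notes name STAR 2.7.0, featureCounts and GRCm38.p5. How strand was handled and which gene annotation was used is not given in the sources used here, so reads from genes that overlap on opposite strands may not have been told apart.

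Symbols, positions and exon lengths came from GENCODE M21, which named 25664 of the 25700 identifiers. The other 36 held 0.0481% of counts. In R 4.3.3, edgeR 4.0.16 was run with TMM scaling on the 12433 genes that its low-count filter retained (minimum count 10). The quasi-likelihood test compared both conditions without further terms. A gene was called where its p, adjusted by Benjamini-Hochberg over all tested genes, was under 0.05. Fold changes are heme over control. TPM values were computed from the counts and merged exon lengths. Genes near 0 were given a floor of 3 counts over a group, or a ratio with an exact binomial interval (95%). Upstream sequences came from RefSeq (GRCm38.p6) and the 3′ UTR windows from GENCODE M21.

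The members, the 11 gene lists and the 10 marker lists were chosen with earlier results of these data known, so counts over them are descriptions. Besides the 10 genes and Hmox1, each list names up to 3 called genes with the largest change and up to 2 called genes of opposite direction, and for the 3 called members with the largest change and at least 10 counts in every library the 3 genes with the closest pattern. Genes outside this rule are marked where they are named. Alternatives were median-of-ratios and upper quartile scaling, library sizes alone, DESeq2 1.42.0, limma-voom (limma 3.58.1), no filter or a minimum count of 50, the replicate number as a block, and leaving out each library. The labels do not say that equal numbers share a mouse, and equally numbered libraries did not deviate from their group means together (correlations -0.0998, -0.142 and -0.0683). The procedure was also run on simulated counts in which few genes changed, as many rising as falling. Most tested genes were called in the real data, so that run cannot show how the scaling performs here.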

Additional observations from a re-analysis of the deposited data

How the results depend on the processing

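Of 162 alternative values, 157 were counted as unchanged. For a tested gene this meant the same direction and side of the threshold, and for a count a value within 1.5 times. The 157 include 8 values for Lif, which was not tested and so had no side of the threshold to keep. These 8 were all positive, with log2 fold changes between 1.33 and 2.38. With library sizes alone, 2580 genes were called higher and 5814 lower, against 3938 and 3831 with TMM. On that scale Tnfsf13b no longer passed the test (0.52, edgeR adjusted p = 0.0609) and Il15 did (-0.34, edgeR adjusted p = 0.036), so that 2 of the 10 genes were called higher and 4 lower. Both values moved with the shift of all genes.

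Leaving out 1 library at a time gave 3457 to 4071 genes called higher and 3253 to 3968 called lower, with 2 to 3 of the 10 genes called higher and 3 lower in every case. The log2 fold changes were 2.09 to 2.58 for Tnf, -1.33 to -0.80 for Il10, 0.61 to 0.91 for Osm, -0.25 to -0.03 for Il15, 0.54 to 0.90 for Tnfsf13b, -1.52 to -1.26 for Il6ra and -1.87 to -1.59 for Il10ra. Only Tnfsf13b lost its call, without the second heme-treated culture (0.54, edgeR adjusted p = 0.064). The untested Lif had 1.33 to 2.38, where the value without the first control culture (2.01) is a lower bound.

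With the replicate number as a block, edgeR gave 2.34 for Tnf, -1.01 for Il10, 0.80 for Osm, -0.12 for Il15, 0.72 for Tnfsf13b, -1.38 for Il6ra and -1.70 for Il10ra, 3671 genes called higher and 3493 lower. The block changed no call of the 10 genes, and the numbers are not known to pair the cultures.

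Depth limits Il6 and Lif, with at most 8 counts in a library, and Il12b with none. Il10 rests on 20 to 78 counts in a library, and its highest adjusted p by edgeR over all alternatives was 0.0451.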
